A study of Mus musculus with 12 samples.

Results

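Water crosses an epithelium through aquaporins and follows the salt that ion channels and cotransporters move, and 9 mouse genes of this machinery were examined in the uterus. They were chosen by symbol, as every probe that the array's annotation names Aqp1, Aqp3, Aqp4, Aqp5, Aqp8, Aqp9, Cftr, Scnn1a or Slc12a2. The rule itself reads no values, but the set was put together with earlier results of these data known. This gave 19 of 45281 probes and 9 of 19057 named genes. Of the 19 probes, 14 were detected above background (detection p below 0.05 on at least 3 of 12 arrays), and these covered all 9 genes.

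RNA of whole uteri from female C57BL/6 mice, 2 months old, was hybridised to Illumina bead arrays, with 1 array for each of 12 uteri. The labels give 4 groups of 3 uteri: control (titled CO, wild type for Cdh1 and P53), Cdh1 cKO (Cdh1 knocked out, P53 intact), P53 cKO (P53 knocked out, Cdh1 intact) and the double cKO with both genes knocked out. Cdh1 encodes E-cadherin, the adhesion protein of epithelial cell contacts, and P53 is the tumour suppressor whose gene is Trp53. The recombinase and the cells it acts in, the deleted exons and the stage of the estrous cycle are unknown from the sources used here. Nothing in the labels says more about how the animals of a group were related than that each uterus is a separate sample, so a p-value reflects the spread among these 12 samples alone.

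An aquaporin is a pore that lets water pass down an osmotic gradient, and Aqp3 and Aqp9 also pass glycerol. In the uterine epithelium the chloride channel Cftr and the basolateral cotransporter Slc12a2 (Nkcc1) serve secretion into the lumen, while the epithelial sodium channel, of which Scnn1a is the alpha subunit, serves absorption. Luminal fluid is known to rise under estrogen and to be absorbed under progesterone and around implantation.

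Promoters of 3 genes are shown because the genes carry the results below: Aqp5 passed the test between genotypes, while Aqp8 and Cftr varied widely among uteri of the same genotype. Each is the RefSeq window of GRCm38.p6 from 250 bases before to 50 bases after the annotated start, 5′ to 3′ on the strand of the gene. Windows were available for 6 of the 9 genes. Capitals mark matches, on either strand, to the motifs searched. These were the full estrogen response element, which is an inverted pair of GGTCA around 3 free bases, and GGTCA alone, which also lies inside the full element. AGAACA stands for one arm of the progesterone and glucocorticoid element, TGANTCA for AP-1 and TGACG for one arm of the cAMP response element. TGACNNNGC is the core of the antioxidant response element. The TATA box was searched as TATAAA, the GC box as GGGCGG and the CCAAT box by its name.
Aqp5, chr15:99590778-99591077, plus strand: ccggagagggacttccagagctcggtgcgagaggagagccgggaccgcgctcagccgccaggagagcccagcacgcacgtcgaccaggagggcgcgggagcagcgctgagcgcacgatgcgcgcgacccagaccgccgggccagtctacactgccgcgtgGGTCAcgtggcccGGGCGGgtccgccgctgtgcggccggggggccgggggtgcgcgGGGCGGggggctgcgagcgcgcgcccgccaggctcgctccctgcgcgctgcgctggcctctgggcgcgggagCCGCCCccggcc
Aqp8, chr7:123462044-123462343, plus strand: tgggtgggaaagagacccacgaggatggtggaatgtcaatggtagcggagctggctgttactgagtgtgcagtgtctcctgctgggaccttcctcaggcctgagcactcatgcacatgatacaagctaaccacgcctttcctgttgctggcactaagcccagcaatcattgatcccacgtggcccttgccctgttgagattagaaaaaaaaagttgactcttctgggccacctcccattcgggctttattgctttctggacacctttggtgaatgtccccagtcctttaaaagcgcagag
Cftr, chr6:18170437-18170736, plus strand: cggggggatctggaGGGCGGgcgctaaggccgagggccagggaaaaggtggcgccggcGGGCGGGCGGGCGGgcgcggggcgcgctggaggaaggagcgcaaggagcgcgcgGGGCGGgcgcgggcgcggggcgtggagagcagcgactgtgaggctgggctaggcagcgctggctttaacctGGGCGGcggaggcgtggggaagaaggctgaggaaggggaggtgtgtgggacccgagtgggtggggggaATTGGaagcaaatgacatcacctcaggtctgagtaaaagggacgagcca

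The Aqp5 window was 79.7% G and C and held 1 GGTCA, starting 90 bases before the start site (-90), and 3 GC boxes (-77, -34 and 38). Of all 32851 promoter windows, 40.5% held GGTCA and 35.7% held at least 1 GC box, so having either did not set this promoter apart. How often windows held several GC boxes was not counted. None of the 9 motifs was found in the Aqp8 window, at 52% G and C. The Cftr window, at 71.3% G and C, held 6 GC boxes and 1 CCAAT box, which 37.4% of all windows held. The full estrogen response element, found in 0.07% of all windows, was in none of the windows of these genes. AP-1 motifs were in 7.81% of all windows, antioxidant cores in 12.4%, TATA boxes in 13.6%, AGAACA in 19% and TGACG in 20.8%. These matches describe letters and were not tested for binding.

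Values are background-corrected, quantile-normalised log2 signals of 1 probe per gene, and a difference of 1 is a doubling on that scale. A level is set only against the same probe in other uteri, since probes differ in how well they bind. A gene is said to have passed the test, or been called, at an adjusted p below 0.05, from limma's moderated test with Benjamini-Hochberg adjustment over 12194 tested genes. In whole tissue, fewer cells of a type and less RNA per cell cannot be told apart.

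The arrays themselves were alike in depth: between 44.3% and 47.9% of probes were detected on each, with median intensities of 106 to 119. The labels were checked on the targeted gene. Cdh1 gave log2 signals of 9.71, 9.41 and 10.08 in the control uteri, 9.74, 9.58 and 9.98 in the uteri labelled Cdh1 cKO, 9.26, 9.13 and 9.04 in the P53 cKO uteri and 9.67, 8.18 and 7.36 in the double cKO uteri. It was not lower in the uteri labelled Cdh1 cKO (0.03 ± 0.45 SE against control, adjusted p = 0.990), and was -1.33 ± 0.45 in the double cKO (adjusted p = 0.154). A second, dimmer Cdh1 probe, detected on 10 arrays, gave -0.21 ± 0.27 and 0.30 ± 0.27 in the same comparisons (adjusted p = 0.868 and 0.671), so the probes differ in sign in the double cKO. Whether either probe lies in a deleted part is not given in the sources used here, so a signal that stays does not settle the genotype. The Trp53 level was not analysed here. Of 10 genes fixed as uterine markers, 9 were tested. None was called between the double cKO and control, where 2.73% of all tested genes were called. There 7 of the 9 lay below 0, with a median of -0.56, beside 55.4% and -0.04 over all genes. The uterine list was lowest in the first double cKO uterus (median deviation -0.79 from the mean of the 12 uteri). A pair of arrays stood apart on lists of markers. The third uterus labelled Cdh1 cKO had the highest level of the squamous epithelium list (median deviation 1.98 from the mean of the 12 uteri, against at most 0.05 elsewhere), and the first double cKO uterus had the highest oviduct list (1.16, against at most 0.30 elsewhere). The oviduct gene Ovgp1 was at 13.20 in that uterus and at 5.43 and 5.79 in the others of its group, but it was also high in the control (10.39 to 11.95), at 8.46 or above in the P53 cKO and at 7.34 to 7.61 in the uteri labelled Cdh1 cKO. For the members, calls that change without these arrays are given both ways.

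Across all comparisons 1 member was called, and it was Aqp5. This water channel sits in the apical membrane of secretory epithelia such as salivary and lacrimal glands, and in the uterine glands of rodents. Its log2 signal was 9.32, 7.77 and 9.64 in the control uteri, 10.89, 9.42 and 11.26 in the uteri labelled Cdh1 cKO, 9.46, 9.15 and 8.89 in the P53 cKO uteri and 11.47, 11.05 and 11.38 in the double cKO uteri. All 3 double cKO uteri lay above every control and every P53 cKO uterus, and they were also the tightest group. The second uterus labelled Cdh1 cKO lay among the controls, with the other two above them.

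Aqp5 was higher in the double cKO (11.30 ± 0.22, SD, n = 3) than in the control (8.91 ± 0.998, SD, n = 3) by 2.39 ± 0.52 (SE) on the log2 scale, a 5.24-fold difference (adjusted p = 0.0364). It was the single member called of 9 in that comparison, where 2.73% of all tested genes were called. Over the 6 uteri whose labels carry the Cdh1 knock-out against the 6 whose labels do not, Aqp5 was higher by 1.87 ± 0.37 (adjusted p = 0.0255), again the only member called, against 2.53% of all genes. The uteri labelled Cdh1 cKO had a mean of 10.52 ± 0.97 (SD, n = 3), 1.61 ± 0.52 above control, which did not pass after adjustment (unadjusted p = 0.00989, adjusted p = 0.398). Between uteri of the same number in these groups Aqp5 differed by 1.57, 1.65 and 1.62. With these groups alone and the number as a block, an alternative chosen after seeing the data, the SE was 0.17 and the adjusted p 0.147, still short of the threshold. The difference from the P53 cKO was 2.13 ± 0.52 (adjusted p = 0.0826), and that of the P53 cKO from control 0.26 ± 0.52 (adjusted p = 0.9995, 95% interval -0.88 to 1.40). Between the double cKO and the uteri labelled Cdh1 cKO the difference was 0.78 ± 0.52, with an interval from -0.36 to 1.92.

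The direction for Aqp5 against control was the same whichever uterus was left out (1.82 to 2.76), but the call was not. It was lost without the first or the second control (adjusted p = 0.0867 and 0.123), the first or the third P53 cKO uterus (0.0559 and 0.0535) and the first, the second or the third double cKO uterus (0.112, 0.0712 and 0.127). In the comparison of 6 with 6 uteri it was lost without the first or the third uterus labelled Cdh1 cKO (0.0501 and 0.0521), the first or the third P53 cKO uterus (0.0604 and 0.0644) and the first or the third double cKO uterus (0.0613 and 0.0684). Against the P53 cKO the reverse was seen, with a call made without the second control (0.0440) or the second uterus labelled Cdh1 cKO (0.0361). Aqp5 has 1 probe on the array, so no second probe could be set beside it. The genes on either side of Aqp5 on the chromosome in RefSeq are the aquaporin genes Aqp2 and Aqp6. Their probes were detected on at most 2 arrays and 0 arrays. Among 3 neighbours on each side, the only other tested one was Bcdin3d, an RNA methyltransferase gene, with a difference of -0.17 ± 0.22 between the double cKO and control (adjusted p = 0.766).

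**Figure D1:**
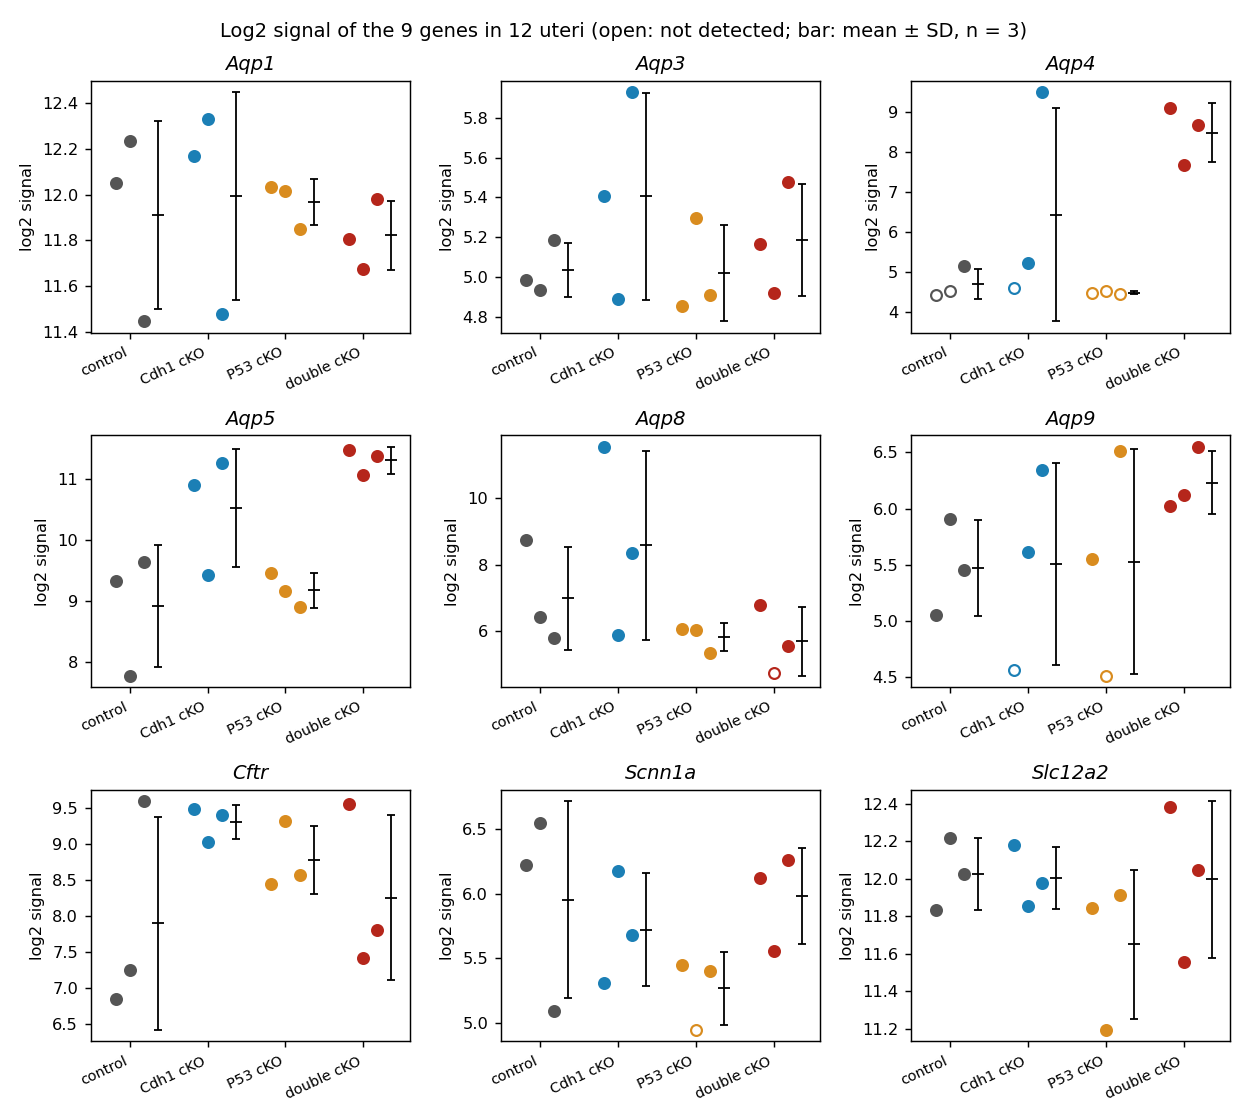
Log2 signal of each of the 9 genes (vertical axis) in the 12 uteri by group, with points for uteri, open where the probe was not detected, and bars for the mean ± SD of 3 uteri. The 3 double cKO uteri stand above the control in Aqp5 (11.05 to 11.47 against 7.77 to 9.64) and Aqp4 (7.68 to 9.11 against 4.44 to 5.14), and Slc12a2 and Aqp1 are level.

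Aqp4, the water channel of astrocyte end feet that is also expressed in stomach and airway epithelium, had the widest gap between groups. Its probe read 4.44, 4.53 and 5.14 in the control uteri, of which only the third was detected, 4.59 (not detected), 5.23 and 9.50 in the uteri labelled Cdh1 cKO, 4.47, 4.53 and 4.46 in the P53 cKO uteri, with no detection, and 9.11, 7.68 and 8.69 in the double cKO uteri. Every double cKO uterus was thus far above every control and P53 cKO uterus, and a single uterus labelled Cdh1 cKO, the third, lay higher still. That uterus is the one with the high squamous list, and the part of squamous epithelium in its Aqp4 signal was not tested. The summed squamous signal ran from 1040 to 19561 in its group, and from 1026 to 1678 in the double cKO, where Aqp4 was also high, beside 999 to 1286 in the control.

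The difference between the double cKO and control was 3.79 ± 0.99 (SE) and did not pass the test (adjusted p = 0.0701). Against the P53 cKO, where Aqp4 was not well above background on any array, it was at least 12.3-fold higher (measured means 8.49 and 4.48, difference 4.01 ± 0.99, adjusted p = 0.0864). The bound sets the bright mean against the higher of the dimmest detected signal of an array and the probe's own value there. Over 6 against 6 uteri by Cdh1 label the difference was 2.87 ± 0.70 (adjusted p = 0.0576), and between the double cKO and the uteri labelled Cdh1 cKO it was 2.05 ± 0.99 (adjusted p = 0.648). In the uteri labelled Cdh1 cKO the mean was 6.44 with an SD of 2.67 (n = 3). Their difference from control was 1.74 ± 0.99 (adjusted p = 0.664), and 0.21 without the third of them.

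All groups share 1 estimate of the error, so the spread of that group enters every test of Aqp4. So does the spread of the P53 cKO values, all undetected near background (SD of 0.037, n = 3). Without the third uterus labelled Cdh1 cKO, Aqp4 was called in the double cKO against control (3.79, adjusted p = 4.20e-04), against the remaining uteri with the label Cdh1 cKO (3.58, adjusted p = 0.00284), against the P53 cKO (4.01, adjusted p = 4.10e-04), and in the interaction of the genotypes (3.80, adjusted p = 0.0332). It was then also called between the uteri split by Cdh1 label (2.11, adjusted p = 0.00539) and by P53 label (1.68, adjusted p = 0.0353). Without the first uterus of that group Aqp4 was called against control (adjusted p = 0.0451), against the P53 cKO (adjusted p = 0.0495) and by Cdh1 label (3.33, adjusted p = 0.0291). Left out together with the first double cKO uterus, the third gave a difference of 3.48 from control (adjusted p = 0.00125), an alternative chosen after seeing the data. Fitted on the control and the double cKO alone, the adjusted p was 0.00597. Of the 12 fits that each left out 1 uterus, 2 called Aqp4 against control, and the adjusted p reached 0.225.

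The Aqp4 result rests on 1 of its probes. A second detected probe, designed on another transcript record of the gene, stayed between 4.45 and 5.28 on all 12 arrays and differed by 0.04 ± 0.23 between the double cKO and control (adjusted p = 0.963). The probes were nearly unrelated over the 12 uteri (Pearson r of 0.213), and the array files do not say which transcripts each one binds.

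**Figure D2:**
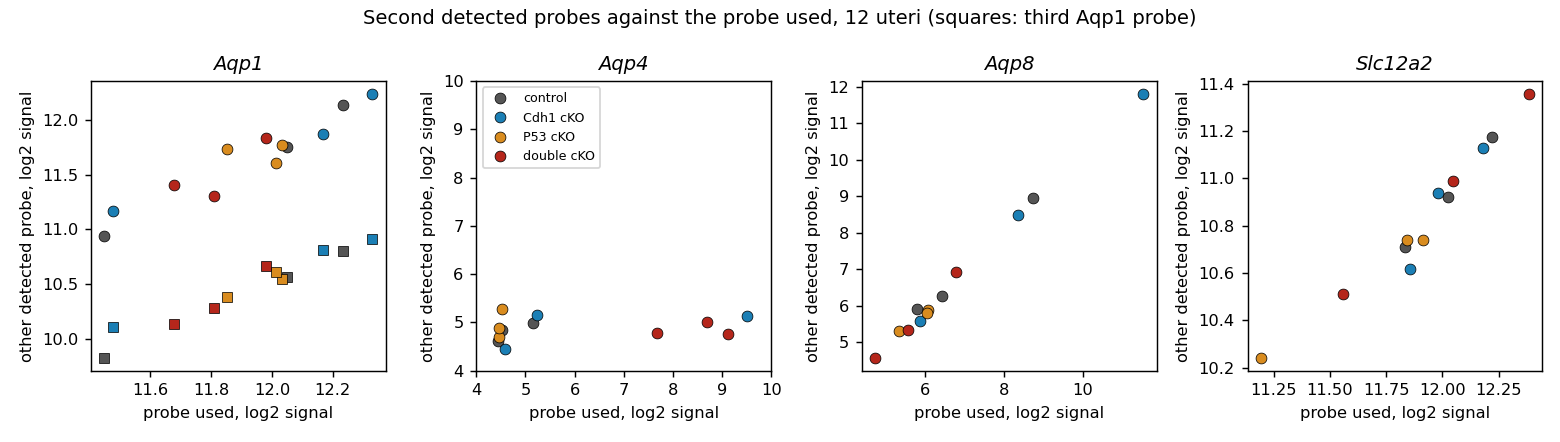
Log2 signal of each further detected probe (vertical axis) against the probe used (horizontal axis) in 12 uteri for the 4 genes with several detected probes. Points follow a line for Aqp1, Aqp8 and Slc12a2 (Pearson r of 0.950 to 0.998), while the second Aqp4 probe stays near 5 as the first runs from 4.44 to 9.50.

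Aqp8, a water channel that also passes ammonia and hydrogen peroxide and is known in the plasma membrane of gut and glandular epithelia, had the widest range of the 9 genes. It gave 8.74, 6.42 and 5.80 in the control uteri, 11.54, 5.87 and 8.36 in the uteri labelled Cdh1 cKO, 6.07, 6.04 and 5.33 in the P53 cKO uteri and 6.77, 4.73 (not detected) and 5.56 in the double cKO uteri. A single control and 2 of the uteri labelled Cdh1 cKO stood high, and all groups overlapped. The second Aqp8 probe followed the first (Pearson r of 0.998), so the spread was between uteri and not between probes.

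No difference for Aqp8 passed the test. The means were 6.99 ± 1.55, 8.59 ± 2.84, 5.82 ± 0.42 and 5.69 ± 1.03 (SD, n = 3) in the order control, labelled Cdh1 cKO, P53 cKO and double cKO. The 6 uteri with the P53 knock-out were at -2.03 ± 0.85 relative to the 6 without it (unadjusted p = 0.0365, adjusted p = 0.779), a comparison in which 0.164% of all genes and no member were called. The double cKO was at -2.90 ± 1.21 relative to the uteri labelled Cdh1 cKO (adjusted p = 0.548). This difference ran from -1.42 without the first of those uteri to -4.26 without the second. In that comparison 0.492% of all genes and no member were called. Against control it was at -1.30 ± 1.21, with a 95% interval from -3.96 to 1.36 that leaves room for a difference in either direction.

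Aqp1, the constitutive water channel of red cells and of capillary endothelium, was almost level. It gave 12.05, 12.23 and 11.45 in the control uteri, 12.17, 12.33 and 11.48 in the uteri labelled Cdh1 cKO, 12.03, 12.01 and 11.85 in the P53 cKO uteri and 11.81, 11.68 and 11.98 in the double cKO uteri. All groups overlapped. The difference between the double cKO and control was -0.09 ± 0.25 (95% interval -0.65 to 0.47), and its other 2 detected probes gave -0.10 ± 0.32 and -0.04 ± 0.28. Among 12 endothelial markers in the same comparison, 10 lay below 0, with a median of -0.75. Over all tested genes, 55.4% lay below 0 and the median was -0.04. Cdh5, the cadherin of endothelial junctions, was the 1 marker called lower, by 1.11 (adjusted p = 0.0331), beside 0.82% of all genes. The summed endothelial signal ran from 10989 to 17515 in the control and from 8356 to 11207 in the double cKO, and its part in the Aqp1 level was not tested.

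Aqp3, a glycerol-passing channel of the basolateral membrane of stratified epithelia and collecting duct, gave 4.98, 4.94 and 5.19 in the control uteri, 5.41, 4.89 and 5.93 in the uteri labelled Cdh1 cKO, 4.85, 5.29 and 4.91 in the P53 cKO uteri and 5.17, 4.92 and 5.48 in the double cKO uteri. Its signal was detected on all 12 arrays but lay close to the dimmest detected signal of an array (4.80 to 4.98). The highest value came from the third uterus labelled Cdh1 cKO, the one with the high squamous list. The largest of its 3 differences from control was 0.37 ± 0.26, for the uteri labelled Cdh1 cKO, with an adjusted p of 0.716. Without the third of those uteri it was 0.11.

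Aqp9, a glycerol and urea channel known from liver and leukocytes, gave 5.05, 5.90 and 5.45 in the control uteri, 4.55 (not detected), 5.61 and 6.35 in the uteri labelled Cdh1 cKO, 5.55, 4.51 (not detected) and 6.52 in the P53 cKO uteri and 6.02, 6.12 and 6.55 in the double cKO uteri. The double cKO uteri lay above the controls with no overlap, but not above the other groups. The difference was 0.76 ± 0.52 (95% interval -0.38 to 1.90, adjusted p = 0.508). In the double cKO against control, 7 of 9 tested neutrophil markers and 5 of 10 macrophage markers were called higher. Of all tested genes, 1.91% were called higher there. The neutrophil markers were led by the calprotectin subunit S100a8 (5.70 on the log2 scale, adjusted p = 3.72e-04). The summed neutrophil signal ran from 830 to 1221 in the control and from 5503 to 9678 in the double cKO, without overlap. In the third P53 cKO uterus, where Aqp9 was at 6.52, the neutrophil list had a median deviation of -0.60. The summed neutrophil signal of that uterus, 2765, was the highest outside the double cKO. The part of neutrophils and macrophages in the Aqp9 and Aqp5 levels was not tested.

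Aqp4, Aqp5 and Aqp9 were the 3 members of 9 whose double cKO uteri lay wholly above the controls, where 11.5% of all tested genes did so. Against the P53 cKO the 3 were Aqp4, Aqp5 and Scnn1a, where 10.4% of all genes did so. Both comparisons share the double cKO uteri.

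Cftr, the apical chloride and bicarbonate channel that drives secretion, gave 6.85, 7.24 and 9.59 in the control uteri, 9.48, 9.03 and 9.40 in the uteri labelled Cdh1 cKO, 8.44, 9.31 and 8.57 in the P53 cKO uteri and 9.56, 7.41 and 7.80 in the double cKO uteri. The first and second controls were the lowest of all 12 uteri and the third control the highest, so the control alone spanned the whole range. These 2 controls were also the lowest of the 12 in the simple epithelium list (median deviations -0.85 and -0.76, against 0.30 in the third) and in the list of estrogen-responsive genes (-0.92 and -1.27, against 0.32), and the part of either in the Cftr level was not tested. The mean in the uteri labelled Cdh1 cKO was 9.30 ± 0.24 (SD, n = 3) against 7.89 ± 1.48 in the control, a difference of 1.41 ± 0.69 (SE) that did not pass (unadjusted p = 0.0666, adjusted p = 0.601). It was 0.89 without the first control and 2.26 without the third. The double cKO was 0.36 ± 0.69 from control (95% interval -1.17 to 1.89) and turned to -0.29 without the first double cKO uterus. Its second probe, designed on a different transcript record, was not detected on any array.

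Slc12a2, which loads chloride into the cell across the basolateral membrane for Cftr to release, gave 11.83, 12.22 and 12.02 in the control uteri, 12.18, 11.86 and 11.98 in the uteri labelled Cdh1 cKO, 11.84, 11.19 and 11.91 in the P53 cKO uteri and 12.38, 11.56 and 12.05 in the double cKO uteri. The groups overlapped throughout. The double cKO differed from control by -0.03 ± 0.25 with a 95% interval from -0.58 to 0.52, the narrowest interval of the 9 genes, and the second detected probe gave 0.02 ± 0.25. A further 3 probes of Slc12a2 were not detected on any array, and they were left out.

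Scnn1a, the pore-forming alpha subunit of the epithelial sodium channel, gave 6.22, 6.54 and 5.10 in the control uteri, 5.31, 6.18 and 5.68 in the uteri labelled Cdh1 cKO, 5.45, 4.95 (not detected) and 5.41 in the P53 cKO uteri and 6.12, 5.56 and 6.26 in the double cKO uteri. The P53 cKO uteri were below all double cKO uteri but overlapped the control. The P53 cKO was at -0.69 ± 0.37 relative to control (unadjusted p = 0.0886, adjusted p = 0.9995). The double cKO was 0.71 ± 0.37 above the P53 cKO (adjusted p = 0.440) and 0.03 ± 0.37 from control (95% interval -0.78 to 0.83).

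**Figure D3:**
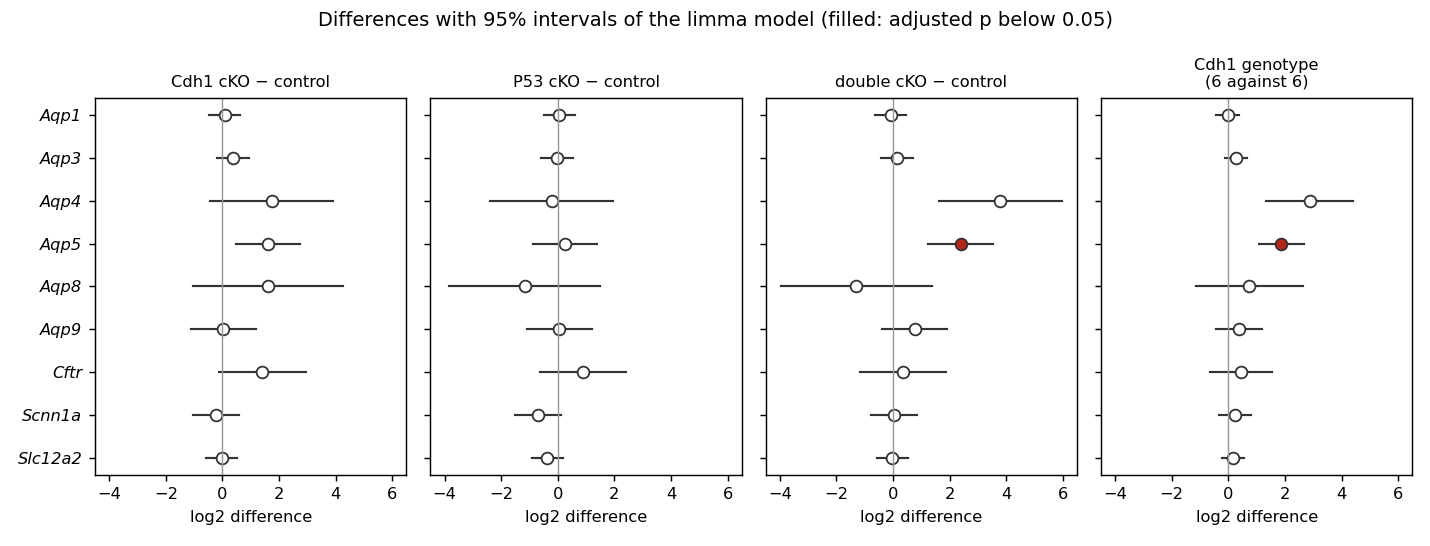
Log2 difference of each of the 9 genes (horizontal axis, bars for 95% intervals of the limma model) in the 3 comparisons with control and the one by Cdh1 label, with filled points for an adjusted p below 0.05. The filled points are those of Aqp5, in the double cKO against control (2.39) and between the 6 and 6 uteri split by Cdh1 label (1.87), while the intervals of Aqp8 are the widest.

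In the comparisons with a single knock-out, none of the 9 genes was called. Against control, 0.0082% of all tested genes were called in the uteri labelled Cdh1 cKO, that is 1 gene, and 0.0164% in the P53 cKO, that is 2 genes. At an unadjusted p below 0.05, 1 member (Aqp5) and 1070 genes passed in the first, and no member and 290 genes in the second. The median difference of the 9 members was 0.37 in the uteri labelled Cdh1 cKO (all genes -0.03), -0.02 in the P53 cKO (all genes -0.01) and 0.15 in the double cKO (all genes -0.04). Against the P53 cKO, the double cKO had no member called and 1.44% of all genes.

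The interaction, which asks whether the difference of the double cKO from the control departs from the sum of both single differences on the log2 scale, called no member and 0.0984% of all genes. Its values were 2.27 ± 1.39 for Aqp4, 0.52 ± 0.73 for Aqp5 and -1.93 ± 0.98 for Cftr, each with an adjusted p of 0.9998, and no member passed an unadjusted p below 0.05. The test of any difference among the 4 groups called no member and 1.25% of all genes, with adjusted p of 0.1002 for Aqp5 and 0.173 for Aqp4.

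Of 6 other aquaporin genes on the array, including the lens channel Mip, 1 was detected on enough arrays to be tested. This was Aqp11, a channel of the endoplasmic reticulum. It gave 8.67, 8.59 and 6.61 in the control uteri, 6.05, 7.49 and 5.11 in the uteri labelled Cdh1 cKO, 7.67, 5.44 and 8.48 in the P53 cKO uteri and 5.30, 6.00 and 6.03 in the double cKO uteri. All double cKO uteri lay below the controls, opposite in sign to Aqp5, a pattern that 14.2% of all tested genes showed. The difference of -2.18 ± 0.83 did not pass (adjusted p = 0.200). Aqp6, Aqp7 and Aqp12 were not detected on any array.

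The rest of the salt pathway was taken from 2 lists of genes for sodium absorption and for chloride and bicarbonate secretion. Of 17 sodium absorption genes, 14 were tested, and 1 rose and none fell in the double cKO against control, where 1.91% of all tested genes rose. Their median difference was 0.66, with 11 above 0, beside -0.04 over all genes, of which 44.6% lay above 0. The list was not split by whether a gene promotes or curbs absorption, so its median gives no direction of absorption. Scnn1g, the gamma subunit that joins Scnn1a in the sodium channel, read 4.37, 4.64 and 4.45 in the control uteri, all not detected, 5.37, 4.50 (not detected) and 5.42 in the uteri labelled Cdh1 cKO, 4.34, 4.69 and 4.51 in the P53 cKO uteri, all not detected, and 6.93, 6.42 and 7.15 in the double cKO uteri. The double cKO uteri were above all 9 others. The difference from control was at least 3.92-fold (measured means 6.84 and 4.48, 2.35 ± 0.26, adjusted p = 9.13e-04), and the adjusted p stayed between 3.77e-04 and 0.00752 whichever uterus was left out. Scnn1g entered the test through the double cKO, the only group in which all 3 arrays detected it, so the filter favoured a gene with this pattern. It was also called against those labelled Cdh1 cKO, by 1.74 ± 0.26 (adjusted p = 0.0147), and against the P53 cKO (at least 3.89-fold, 2.33 ± 0.26, adjusted p = 0.00203).

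The beta subunit Scnn1b stood at 1.35 ± 1.01, short of the threshold (adjusted p = 0.555). St14 (matriptase), one of the membrane proteases known to act on this channel, differed by 1.63 ± 0.41 (adjusted p = 0.0624). Hsd11b2, the enzyme that shields the mineralocorticoid receptor from glucocorticoids, was at -2.53 ± 1.13 (adjusted p = 0.283).

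Of 30 chloride and bicarbonate secretion genes, 21 were tested, and 1 rose and none fell in the same comparison, with a median of 0.07. The calls were thus 1 of 14 and 1 of 21 genes, beside 2.73% of all tested genes called there and 1.91% called higher. No test of either list as a set was run. Slc26a4, the chloride and bicarbonate exchanger pendrin, gave 4.99, 5.17 and 5.27 in the control uteri, 9.66, 7.47 and 7.39 in the uteri labelled Cdh1 cKO, 5.90, 6.59 and 5.04 in the P53 cKO uteri and 10.90, 7.88 and 9.02 in the double cKO uteri. Both groups with the Cdh1 knock-out in the label lay above both groups without it, with no overlap. It was higher in the double cKO than in the control by 4.12 ± 0.76 (adjusted p = 0.0185) and over 6 against 6 uteri by 3.23 ± 0.54 (adjusted p = 0.0141). The call against control was lost without the first control (adjusted p = 0.0754), the second control (0.0761) or the third double cKO uterus (0.0608).

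**Figure D4:**
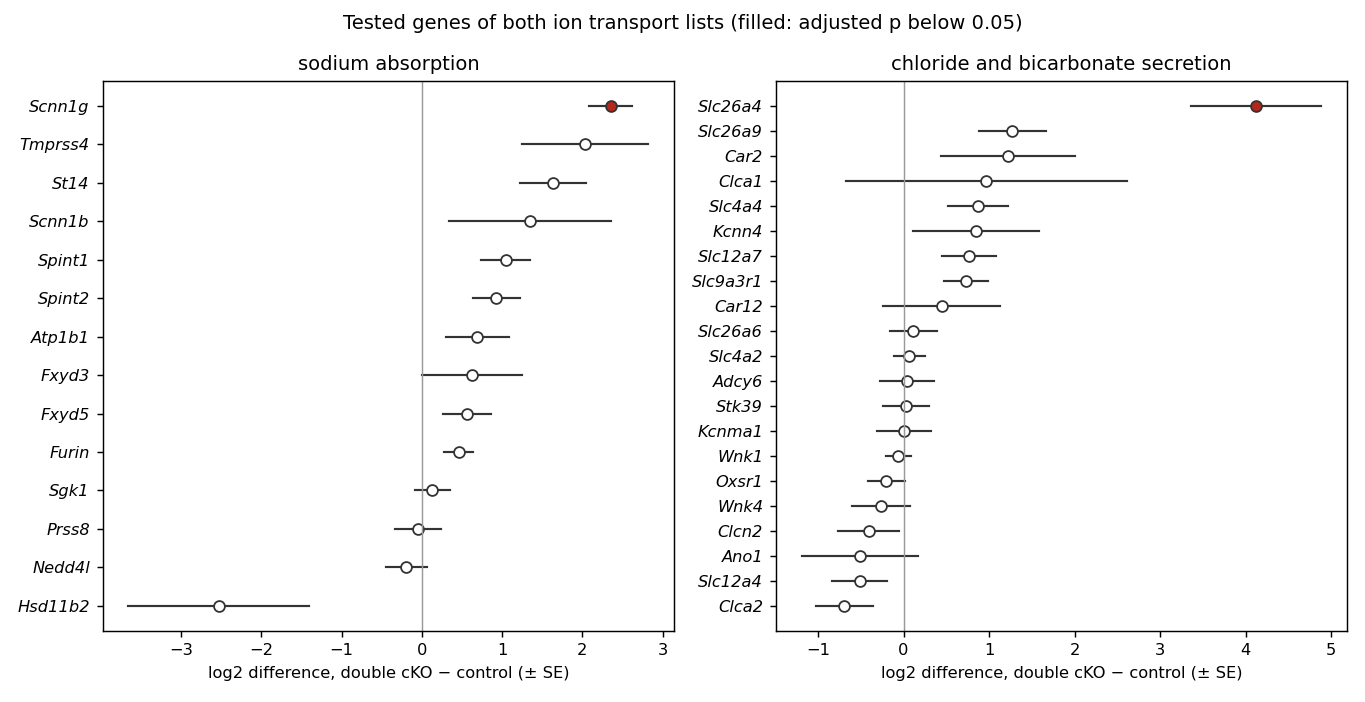
Log2 difference between the double cKO and control (horizontal axis, bars for SE) of the tested genes of the sodium absorption list (14) and the chloride and bicarbonate secretion list (21), filled where the adjusted p was below 0.05. The filled points are Scnn1g (2.35) and Slc26a4 (4.12).

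Hormone-responsive genes and cell type markers were set beside the members in the double cKO against control. Over all tested genes in that comparison, 1.91% were called higher, 0.82% were called lower and the median was -0.04. Of 14 tested estrogen-responsive genes none was called, with a median of 1.03, and of 11 progesterone-responsive genes none was called, with a median of -0.62. Among 10 simple epithelium markers 1 was called, the tight junction claudin Cldn4, higher by 2.47 ± 0.27 (adjusted p = 8.53e-04), and the list had a median of 0.72. Its summed signal ran from 13505 to 26883 in the control and from 27230 to 36166 in the double cKO. Of 8 tested oviduct and ciliated cell markers 1 fell, Tppp3 (by 2.09, adjusted p = 0.0324). No gene was called in the squamous epithelium, red blood cell, smooth muscle, stroma, adipocyte, proliferation and uterus lists. The part of these shifts in the Aqp5 and Aqp4 levels was not tested.

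**Figure D5:**
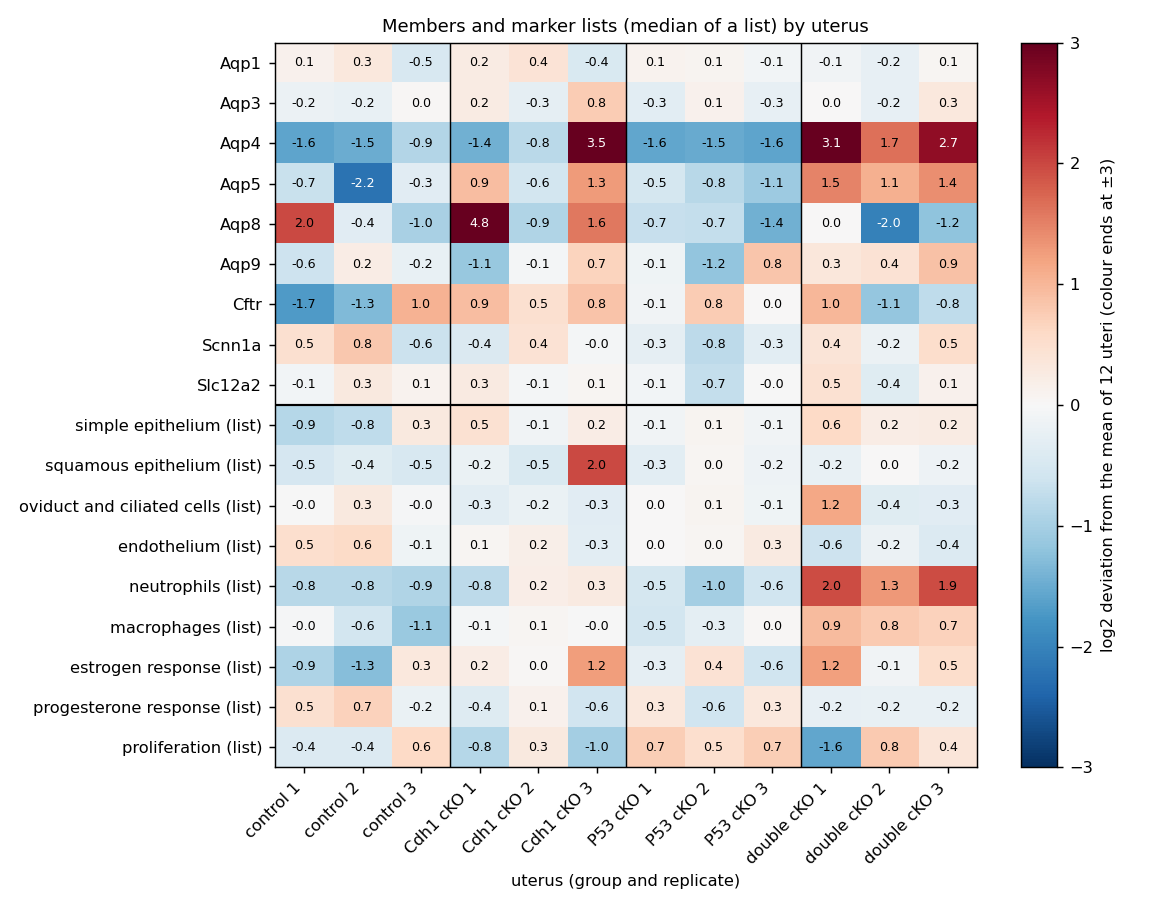
Deviation of each member's log2 signal, and of the median of each marker list, from the mean of 12 uteri (colour, with its ends at ±3), with uteri in columns by group. Aqp5 and Aqp4 are high in the double cKO, Aqp4 also in the third uterus labelled Cdh1 cKO, where the squamous list reaches 1.98, and Cftr is low in the first and second controls.

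The members did not move as one group over the uteri. Pairs were compared over 12 arrays, which share the genotypes, the normalisation and the cell mixture of each uterus. Aqp4 and Aqp5 had the highest correlation of any pair of members (Pearson r of 0.816). Aqp8 with Aqp5 gave 0.214 and Cftr with Slc12a2 0.107. The lowest was Cftr with Scnn1a, at -0.557. Once each group's mean was taken out, Aqp4 with Aqp5 gave 0.452. The highest was then Aqp3 with Aqp4 (0.714) and the lowest Aqp1 with Aqp4 (-0.690). In the third uterus labelled Cdh1 cKO, Aqp4 was at 9.50, far above its group mean of 6.44. Aqp3 was at 5.93 and Aqp1 at 11.48 in that uterus, and its part in both correlations was not tested. With group means left in, Spearman rho of these pairs was 0.476 and -0.441.

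The tested genes whose log2 signal was most like that of a member were found by Pearson r over the same 12 arrays. For Aqp5 they were Nfe2l2 (r of 0.935), a transcription factor of the antioxidant response, Trim10 (0.924) and the transglutaminase Tgm1 (0.912). For Aqp4 they were Marchf4 (0.957), Calcb (0.956) and Rhov (0.953), with Spearman rho of 0.916, 0.657 and 0.741. For Aqp8 they were Adamts9 (0.918), Bhlha15 (0.888) and Sbsn (0.874), and for Cftr Aoc1 (0.919), Tmem102 (0.918) and Hdac8 (0.912). Fam184a (0.883) was most like Aqp1, Cux1 (0.921) most like Aqp3, Angptl1 (0.883) most like Aqp9, Traf2 (0.897) most like Scnn1a and Adipor1 (0.941) most like Slc12a2. They were picked as the highest r among the tested genes over 12 arrays, predicted and clone-named genes and the members aside, and r is given as a description.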

How the data were processed

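RNA of 12 uteri, 3 in each of 4 genotypes, was measured on Illumina bead arrays after biotin labelling, per the labels' protocols. The authors deposited each probe's non-normalized intensity, its detection p-value and the count of beads behind it (median 41 to 43 on an array), per the file headers. They also deposited a matrix of log2 values; the submitters' processing notes name limma 3.10.2. The deposited intensities were processed with neqc of limma 3.58.1 (R 4.3.3; background from the detection p-values, quantile normalisation, offset 16), and the result differed from the deposited log2 values by at most 0.00292 for the probes of these genes. The median of each column of that matrix was 4.72. No sequencing depth applies, and the number of arrays limits the precision. A further 12 columns (bead standard errors) were not used.

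Of 45281 probes, 34885 had 1 gene symbol, 18 several and 10378 none in the platform annotation. Probes detected (p below 0.05) on at least 3 of 12 arrays were kept, and the probe with the highest mean stood for a gene, which gave 12194 genes. lmFit and eBayes were fitted on all 12 arrays with 1 mean per group. Levels of list genes are sums of signals or medians of deviations. The members and lists were chosen with earlier results of these data known. Named genes were all members, Cdh1, the 3 genes most like each member (without predicted and clone-named genes), and per list up to 4 called genes or, where none was called, the 2 with the highest mean; the further genes named from the transport lists were chosen after their values were seen. Same-numbered uteri deviated together in every pair only for the control with the uteri labelled Cdh1 cKO (r from 0.218 to 0.332), not elsewhere. Same-numbered uteri labelled Cdh1 cKO and P53 cKO gave r from -0.648 to -0.207. Among the 36 pairs of different number r reached 0.563, so these r do not by themselves show a pairing. The labels give no shared litter or day, so the main fit has no block, and a fit of those groups alone with the number as a block was added after seeing the data. Alternatives were the deposited log2 values, no background correction, other filters, all detected probes, an intensity trend, a replicate block, only the groups compared, and leaving out each array.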

Additional observations from a re-analysis of the deposited data

How the results depend on the processing

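Of 882 single-gene results under an alternative, 812 kept their direction and their side of the threshold. That share is no measure of robustness. Refits of the same values, and fits without a uterus of an uninvolved group, leave a difference between groups as it was. In many results the direction therefore could not turn, and most were of differences not called in the main fit. With the replicate block the count of called members was the same in every comparison: Aqp5 was called in the double cKO against control (adjusted p = 0.0217) and over 6 against 6 uteri by Cdh1 label (adjusted p = 0.0188), while the number of all genes called in the first went from 333 to 214. With 1 array left out that number ran from 117 to 553, and the number of members called from 0 to 2. That of members ran from 0 to 1 in the double cKO against the uteri labelled Cdh1 cKO, against the P53 cKO, in the interaction, in both comparisons of 6 with 6 and in the test of any difference. Over 21 alternatives Aqp5 passed against control in 11 (adjusted p from 0.0150 to 0.127) and Aqp4 in 4 (from 4.20e-04 to 0.225). Without the detection filter, which adds genes to the adjustment, no member was called against control (0, Aqp5 adjusted p = 0.0641). With only the 2 groups compared, Aqp4 and not Aqp5 was called against control (Aqp5 adjusted p = 0.0504), and 2 members, both of these, against the P53 cKO (adjusted p = 0.00692 and 0.00845). Without the first double cKO and the third uterus labelled Cdh1 cKO, 1 member, Aqp4, was called in each of the double cKO comparisons, the interaction, both comparisons of 6 with 6 and the test of any difference, and Aqp5 was not called against control (adjusted p = 0.0924). These directions turned among differences that were not called: without background correction, Scnn1a in the double cKO against control (-0.012) and Aqp8 in the double cKO against the P53 cKO (0.038); and without both of those arrays, Aqp9 in the uteri labelled Cdh1 cKO (-0.38), and Cftr (-0.29) and Scnn1a (-0.041) in the double cKO. With 1 array left out, differences from control in the uteri labelled Cdh1 cKO ran from -0.38 to 0.51 for Aqp9, -0.66 to 0.063 for Scnn1a, -0.12 to 0.076 for Slc12a2 and -0.15 to 0.34 for Aqp1. Those in the P53 cKO ran from -0.44 to 0.57 for Aqp9, -0.31 to 0.62 for Aqp5, -0.18 to 0.22 for Aqp1 and -0.16 to 0.066 for Aqp3. Those in the double cKO ran from -0.29 to 1.21 for Cftr, -0.32 to 0.072 for Aqp1, -0.22 to 0.19 for Slc12a2 and -0.40 to 0.32 for Scnn1a. Aqp8 ran from -0.67 to 0.35 against the P53 cKO and from -1.7e-06 to 1.42 over 6 against 6 by Cdh1 label, and the Aqp5 interaction from -0.031 to 1.09. Apart from the detection filter, the cause was not tested. Aqp3, Aqp9, Scnn1a and the undetected Aqp4 values lay near the array background, which limits what their differences can show.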
